A study of Homo sapiens with 20 samples.

Results

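Described here are 40 cytokine, chemokine and NF-κB genes in 20 RNA-seq libraries of 2 human cancer cell lines. They were taken by symbol from a named list, and each was found among the 23368 genes of the count tables, CXCL8 under its older symbol IL8. They comprised 13 secreted interleukins and colony stimulating factors, 11 chemokines, 7 NF-κB subunits and pathway genes, 3 adhesion and prostaglandin genes, and 6 receptors. Panc1 is a line from a pancreatic ductal carcinoma and A549 one from a lung adenocarcinoma, and the labels record SV40 large T antigen for both although both are known as tumour-derived lines. Each line had 4 groups: a control siRNA (siCont), TGFβ (TGFb), an siRNA against KLF10 (siKLF10), and that siRNA with TGFβ (siKLF10_TGFb), with 3 libraries each in Panc1 and 2 each in A549. The labels name no siRNA for the TGFb groups, so whether those cells held a control siRNA is not known from them, and in comparisons with TGFb an effect of transfection cannot be told apart. The TGFβ dose was 5 ng/ml over 72 h, and KLF10 is a zinc-finger transcription factor that TGFβ induces. The series asks how KLF10 bears on the epithelial-to-mesenchymal transition that TGFβ sets off.

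NF-κB is a family of transcription factors, among them the products of NFKB1, NFKB2 and RELB, held in the cytoplasm by inhibitors such as IκBα (NFKBIA) until a signal from a TNF or interleukin 1 receptor frees them. Many of its targets are cytokines and chemokines, and others, such as NFKBIA and TNFAIP3, shut the pathway off again, so that a change in one gene need not report the activity of the pathway. In carcinoma cells, secreted interleukin 11 and leukemia inhibitory factor act through receptors that share gp130, and the CXC chemokines attract neutrophils.

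The Panc1 libraries held between 11152625 and 15571367 gene counts each, and the A549 libraries between 6846761 and 19070551. Levels are CPM, read counts of a gene scaled to a common total of gene counts, corrected between libraries by TMM, and given as mean ± SD over libraries. Differences are log2 fold changes ± SE from edgeR's quasi-likelihood test. That test gives no SE, so it was taken as the absolute log2 fold change over the square root of the F statistic. A p-value does not follow from this SE alone. A gene was called at a Benjamini-Hochberg adjusted p under 0.05 over all genes tested. Nothing in the labels says that libraries of a group were grown separately, so a p-value here measures the spread between libraries, which may be technical. In bulk libraries, fewer cells that express a gene and less RNA per cell cannot be told apart. KLF10 itself stood at 140.2, 137 and 130.3 CPM in Panc1 siCont A to C, 192, 187 and 206 in TGFb, 83, 80.8 and 77.5 in siKLF10 and 101, 101 and 104 in siKLF10_TGFb. It was lower with the siRNA both without TGFβ (-0.76 ± 0.0603, adjusted p = 2.58e-09) and with it (-0.94 ± 0.0593, adjusted p = 4.96e-11). In A549 it stood at 110.3 and 107 CPM in siCont, 179 and 179 in TGFb, 102 and 109 in the libraries labelled siKLF10 and 151 and 142 in those labelled siKLF10_TGFb. It was called lower with the siRNA under TGFβ (-0.29 ± 0.0779, adjusted p = 0.00775), though not without TGFb A (adjusted p = 0.0624) or TGFb B (adjusted p = 0.0570), and it was not called without TGFβ (-0.05 ± 0.0802, adjusted p = 0.743), so the A549 groups are named by their labels. Markers of leukocytes, the usual source of many of these cytokines, were absent in part: CD3E was at 0 in every library, and PTPRC, LYZ and CD163 stayed under 1 CPM in both lines. Of 8 such markers, 5 stayed under 1 CPM throughout in A549 and 6 in Panc1. CD14 and CD68 did not in either line, nor did ITGAM in A549. Together the 8 summed to 264 to 285 CPM in Panc1 siCont and 32.5 to 34.8 in A549 siCont. Of the 5 lung alveolar markers, SFTA2 was at 0 and NKX2-1, SFTPB and SFTPC were under 1 CPM in A549, and of 7 pancreatic ductal and epithelial markers PDX1 was under 1 CPM in Panc1. Panc1 siCont A stood apart in the basal keratin KRT5, which measured 60.7 CPM there, 21.8 in siCont B and 22.3 in siCont C, and 5.34 to 9.52 in the other 9 Panc1 libraries. Over genes averaging 20 counts or more, siCont A lay closer to siCont B than siCont C did. Chi-square per degree of freedom was 3.29 for A and B, 5.71 for B and C and 9.42 for A and C.

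RefSeq promoters (GRCh38.p14, a build other than the hg19 of the counts) were matched for 30 of the 40 genes, as the 250 bases before each annotated start. They were searched on both strands, overlapping matches included, for the NF-κB consensus, the AP-1 site TGANTCA, the SMAD element CAGAC and the GC box GGGCGG. The NF-κB consensus was found in 16 of 42 start sites' windows (38.1%), against 5.21% of all 35116 windows of that length. For AP-1 the shares were 11.9% and 6.57%, for the SMAD element 38.1% and 38.0%, and for the GC box 52.4% and 42.6%. These are matches of letters, not sites shown to be bound. IL15, IL18, LIF, CSF1, CSF3, CCL2, CCL5, CXCL16, CX3CL1 and RELB had no entry.

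The promoters printed are those of IL11, which TGFβ raised in both lines, of the neighbouring CXC chemokines CXCL1, CXCL2, CXCL3 and CXCL5 on chromosome 4, and of NFKB1, NFKBIA and TNFAIP3, which encode the pathway itself and its inhibitors. Each runs 5′ to 3′ on the gene's strand up to the base before the start site, and capitals mark a match to the NF-κB consensus or, in IL11, to AP-1. Positions count back from the start site.
IL11: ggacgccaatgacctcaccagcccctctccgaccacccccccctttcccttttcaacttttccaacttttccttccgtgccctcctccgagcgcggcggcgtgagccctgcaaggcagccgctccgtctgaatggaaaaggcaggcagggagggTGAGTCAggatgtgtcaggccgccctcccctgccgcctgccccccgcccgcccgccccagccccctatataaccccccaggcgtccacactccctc
CXCL1: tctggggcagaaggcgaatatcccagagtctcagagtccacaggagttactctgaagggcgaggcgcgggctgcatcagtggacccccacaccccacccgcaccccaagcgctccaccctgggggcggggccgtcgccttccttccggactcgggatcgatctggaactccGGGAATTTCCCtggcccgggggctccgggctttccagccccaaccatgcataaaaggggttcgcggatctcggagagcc
CXCL2: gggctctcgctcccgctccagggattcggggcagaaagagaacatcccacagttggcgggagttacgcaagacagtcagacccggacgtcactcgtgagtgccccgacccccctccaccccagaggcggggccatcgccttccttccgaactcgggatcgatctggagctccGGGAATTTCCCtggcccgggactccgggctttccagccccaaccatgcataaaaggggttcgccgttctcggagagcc
CXCL3: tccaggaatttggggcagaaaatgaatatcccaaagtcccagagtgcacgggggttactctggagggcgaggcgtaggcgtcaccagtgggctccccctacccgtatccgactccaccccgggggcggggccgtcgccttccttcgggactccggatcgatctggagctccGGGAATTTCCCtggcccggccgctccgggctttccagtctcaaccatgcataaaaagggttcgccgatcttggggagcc
CXCL5: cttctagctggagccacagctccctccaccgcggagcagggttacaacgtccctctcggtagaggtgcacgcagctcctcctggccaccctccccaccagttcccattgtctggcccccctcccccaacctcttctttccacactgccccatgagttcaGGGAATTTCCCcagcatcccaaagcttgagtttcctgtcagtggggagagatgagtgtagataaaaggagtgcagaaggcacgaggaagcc
NFKB1: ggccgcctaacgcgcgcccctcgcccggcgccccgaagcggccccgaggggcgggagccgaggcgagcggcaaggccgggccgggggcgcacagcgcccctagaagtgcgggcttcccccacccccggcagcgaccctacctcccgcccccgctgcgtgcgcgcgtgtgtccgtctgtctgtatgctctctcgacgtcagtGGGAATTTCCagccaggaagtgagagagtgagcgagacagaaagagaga
NFKBIA: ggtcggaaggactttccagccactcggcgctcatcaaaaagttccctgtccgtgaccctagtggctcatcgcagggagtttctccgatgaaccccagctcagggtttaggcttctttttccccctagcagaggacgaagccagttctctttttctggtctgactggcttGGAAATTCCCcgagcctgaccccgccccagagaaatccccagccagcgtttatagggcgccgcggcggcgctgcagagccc
TNFAIP3: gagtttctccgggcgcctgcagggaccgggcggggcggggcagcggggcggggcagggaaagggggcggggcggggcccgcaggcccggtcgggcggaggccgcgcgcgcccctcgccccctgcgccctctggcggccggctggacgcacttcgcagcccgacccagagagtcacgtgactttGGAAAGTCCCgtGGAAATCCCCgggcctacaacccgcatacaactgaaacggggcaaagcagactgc
The windows lie at chr19:55370464-55370713 on the minus strand for IL11, chr4:73869143-73869392 on the plus strand for CXCL1, chr4:74099196-74099445 on the minus strand for CXCL2, chr4:74038690-74038939 on the minus strand for CXCL3 and chr4:73998678-73998927 on the minus strand for CXCL5. For NFKB1 the window is chr4:102501109-102501358 on the plus strand, for NFKBIA chr14:35404750-35404999 on the minus strand and for TNFAIP3 chr6:137867009-137867258 on the plus strand. The consensus match began at -79 in CXCL1 and CXCL3, at -78 in CXCL2 and at -91 in CXCL5, so the 4 chemokine promoters carry it at like distances. NFKBIA had it at -81 and NFKB1 at -49, and TNFAIP3 had a pair, at -67 and -55. IL11 had no match to the consensus in this window and an AP-1 match at -96. Because CXCL1, CXCL2 and CXCL3 are near-identical copies and only uniquely placed reads were counted, their values are less certain than those of the other genes.

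**Figure D1:**
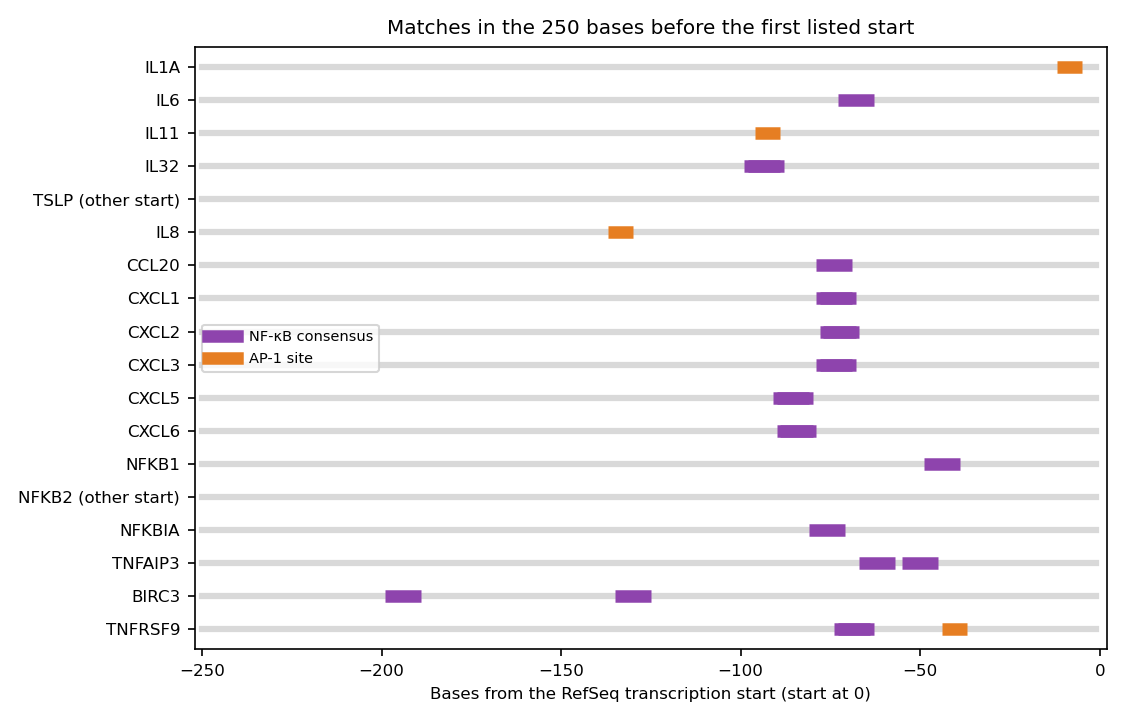
Positions of matches to the NF-κB consensus and the AP-1 site in the 250 bases before the start site (x axis, bases from the start) for the 18 genes with a match, 1 row per gene. TSLP and NFKB2 had their match only at another annotated start. The NF-κB matches of the CXC chemokines fall within a narrow stretch between -91 and -68.

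Without TGFβ or the KLF10 siRNA, most of these genes were at higher levels in A549 than in Panc1. Of 38 genes tested in 1 model over both lines, 27 were lower in Panc1 siCont than in A549 siCont, where 42.9% of all genes were, and 6 were higher, where 39.0% were. Of the 27, IL6, CCL5, CCL20, CXCL2, CXCL3, CXCL5, CX3CL1 and TNFRSF9 were under the filter on low counts in Panc1. They entered the model through A549, so their calls support nothing further. Of the 6, CXCL6 was under the filter in A549 and entered through Panc1, and TSLP was under it in both lines. The median difference was -1.44 on the log2 scale for these genes and -0.07 for all genes tested. The neutrophil chemokines stood far apart. On the scale of that joint model, CXCL5 measured 0.396 ± 0.292 CPM in Panc1 and 483 ± 24.7 in A549, IL8 4.6 ± 2.85 and 68.5 ± 0.189, and CXCL1 10.3 ± 0.839 and 65.5 ± 0.899. CXCL5 in Panc1 came to 17 reads over 3 libraries. Differences were -2.67 ± 0.136, adjusted p = 1.12e-16 for CXCL1 and -3.89 ± 0.245, adjusted p = 1.03e-09 for IL8, the latter -4.48 without Panc1 siCont A. The adhesion receptor ICAM1 (3.24 ± 0.135, adjusted p = 6.05e-21), the monocyte chemokine CCL2 (1.28 ± 0.148, adjusted p = 3.45e-07) and the gp130 partner LIFR (2.66 ± 0.111, adjusted p = 7.25e-21) were among the 6 that were higher in Panc1, with CXCL6, TSLP and IL6ST. TSLP rested on 1 read in A549 siCont, and its difference of 3.54 was 5.87 without A549 siCont A and 2.81 without A549 siCont B. CXCL6, another neutrophil chemokine, had 0 reads in A549 siCont and 35 in Panc1 siCont. TNF, the founding ligand of the TNF family, had 0 reads in all 20 libraries, below the limit of 3 counts per library. The lines also differed in the share of uniquely mapped reads outside annotated genes, 33.6 to 36.9% in Panc1 and 57.6 to 60.1% in A549, and line and library preparation cannot be told apart here.

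TGFβ raised inflammatory ligands and NF-κB genes in A549 and lowered another group of chemokines and receptors. Of 36 genes tested, 18 rose, where 24.2% of all genes tested did, and 10 fell, where 23.5% did. Their median absolute change was 1.21 on the log2 scale, against 0.34 for all genes. Of the 10 secreted interleukins and colony stimulating factors tested, 7 rose and 2 fell. Of the 10 chemokines 2 rose and 4 fell. Among the 7 NF-κB genes 4 rose and 1 fell, and among the 6 receptors 3 rose and 3 fell. These counts and the median include IL1A, IL1B, IL6, CSF2, TREM1 and CX3CL1. Those genes passed the filter on low counts only through groups in which they were high, so they had to differ. Basal keratinocyte markers, 7 in all with KRT1 at 0, summed to 2.47 to 2.89 CPM in siCont and 14.4 to 15.2 in TGFb, and the 8 leukocyte markers to 32.5 to 34.8 and 53.2 to 56.6. The 5 fibroblast markers, none at 0, summed to 1.23 to 1.31 and 4.83 to 5.35 CPM, and the 7 pancreatic ductal and epithelial markers, also none at 0, to 6493 to 6673 and 5895 to 6015. Their part in the results was not tested.

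Interleukin 11, a gp130 cytokine, had the widest rise among ligands that were well above 0 in siCont. IL11 stood at 27.9 and 22.2 CPM in the siCont libraries and at 948 and 958 in the TGFb libraries (5.24 ± 0.101, adjusted p = 3.26e-20, 37.8-fold). The groups were far apart and the TGFb libraries nearly equal. The interleukin 1 ligands IL1A and IL1B, both activators of NF-κB, came up from near the limit of detection. IL1A stood at 0.218 and 0.263 CPM in siCont and 23.5 and 24.6 in TGFb (6.59 ± 0.266, adjusted p = 6.16e-15), and IL1B at 0.508 and 0.438 and 7.24 and 6.53 (3.83 ± 0.326, adjusted p = 1.93e-09). In siCont IL1A rested on 6 reads over both libraries and IL1B on 12. IL32, a cytokine that induces TNF and IL8 in other cells, stood at 8.49 and 7.97 CPM and at 33.8 and 40.8 with TGFβ (2.17 ± 0.145, adjusted p = 3.38e-11). LIF, a gp130 cytokine, rose from 126 ± 8.3 to 249 ± 0.98 CPM (0.98 ± 0.0767, adjusted p = 4.79e-10).

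Some ligands were all but unread without TGFβ. CSF2, the granulocyte and macrophage growth factor GM-CSF, had 0 reads in siCont and 30 and 27 in TGFb A and B, at least 27.2-fold higher against a floor of 3 counts over the group. IL6 had 1 and 2 reads in siCont and 20 and 12 in TGFb, a ratio of 15.3 (95% counting interval 4.78 to 78). TREM1, a receptor that amplifies inflammatory signals in myeloid cells, had 1 and 1 and 136 and 116 reads, a ratio of 181 (49.5 to 1499). All 3 were higher in both TGFb libraries than in either siCont library. In the other direction CX3CL1, a membrane-bound chemokine, had 19 and 13 reads in siCont and 3 and 0 in TGFb, 7.44 times the depth-scaled level of TGFb in siCont (2.33 to 38). These 4 genes, like IL1A and IL1B, passed the filter on low counts only through groups in which they were high, so they had to differ and their calls support nothing further. The intervals cover counting error only.

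The chemokines divided under TGFβ in A549. CCL2, which recruits monocytes, stood at 71.3 and 67.8 CPM in siCont and 562 and 547 in TGFb (2.99 ± 0.264, adjusted p = 4.79e-04), and IL8, which recruits neutrophils, at 66.8 and 67 and 304 and 301 (2.18 ± 0.095, adjusted p = 2.44e-14). Both pairs of groups were far apart and each pair of libraries close. CCL20, the CCR6 ligand, stood at 18.9 and 16 CPM and at 4.93 and 6.68 with TGFβ (-1.63 ± 0.186, adjusted p = 2.02e-07). CXCL5, a neutrophil chemokine, stood at 489 and 454 and 241 and 242 (-0.96 ± 0.0739, adjusted p = 3.36e-10). CXCL16, the ligand of CXCR6, stood at 16.9 and 14.3 and 7.95 and 5.05 (-1.22 ± 0.185, adjusted p = 1.11e-05). These 3 were lower in both TGFb libraries than in either siCont library. The near relatives of CXCL5 were not called, with -0.08 ± 0.104, adjusted p = 0.58 for CXCL1, 0.28 ± 0.148, adjusted p = 0.123 for CXCL2 and 0.12 ± 0.183, adjusted p = 0.63 for CXCL3. CCL5, a T cell chemokine, was not called either (0.75 ± 0.398, adjusted p = 0.127). CXCL2 stood at 12.5 and 11.2 CPM in siCont and 13.8 and 15.3 in TGFb, and CXCL3 at 8.35 and 9.8 and 10.3 and 9.21, where its groups overlapped.

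**Figure D2:**
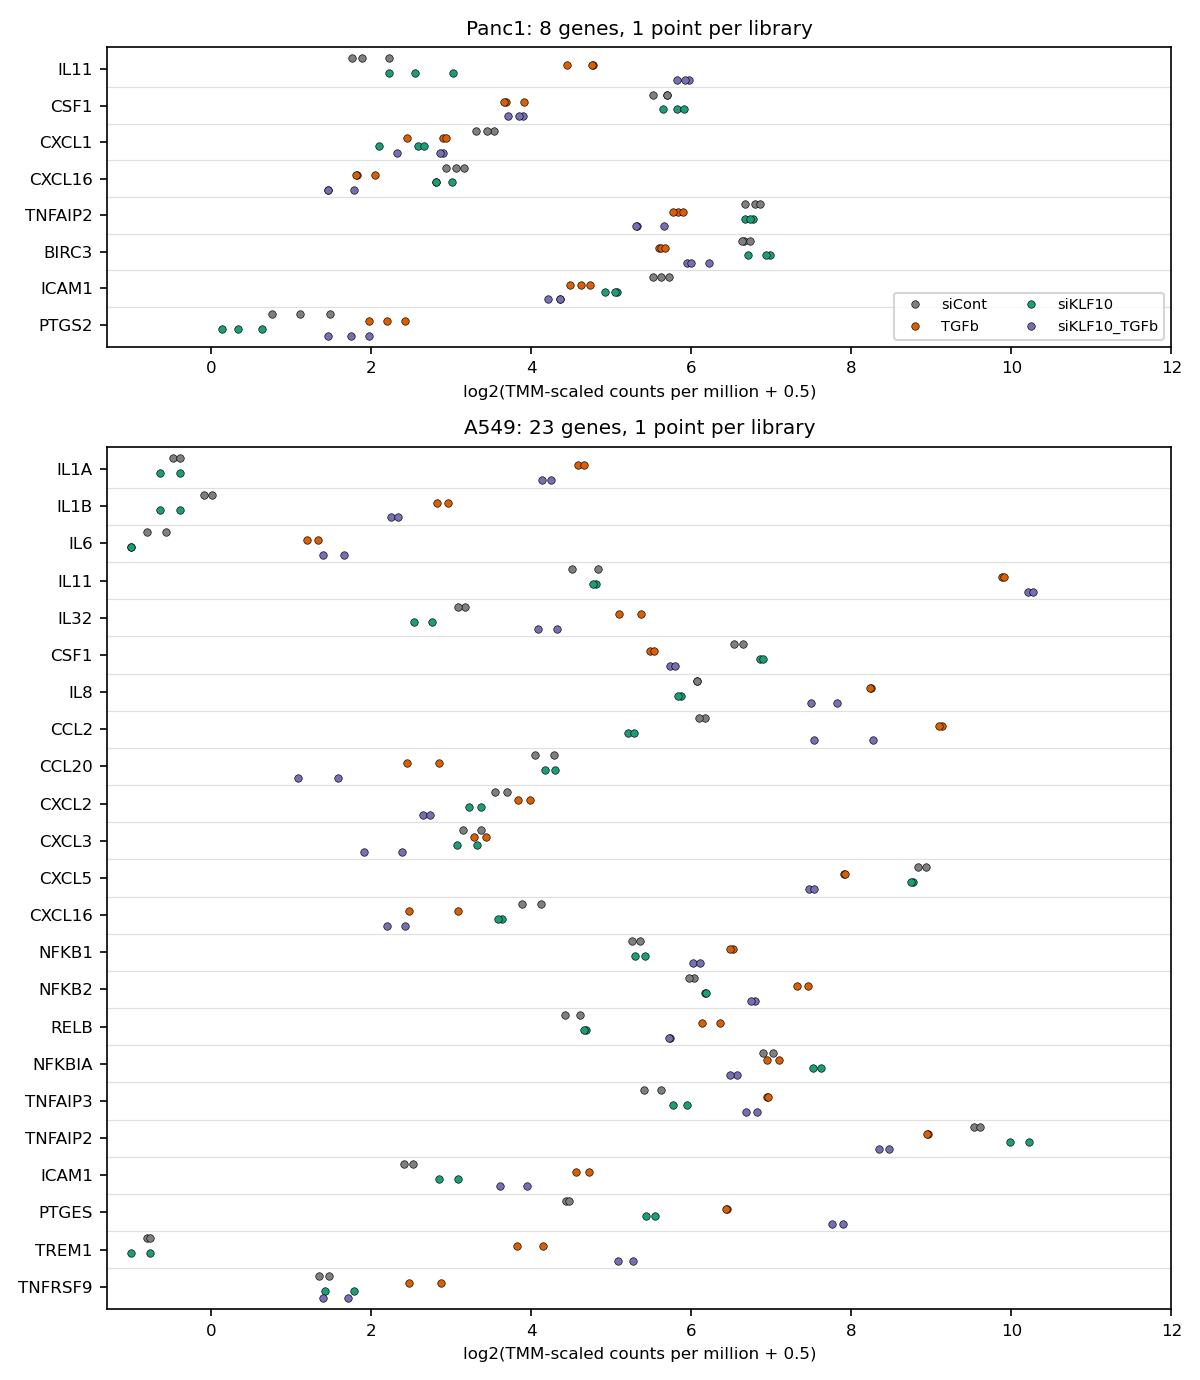
Level of each gene in every library, as log2 of the TMM-scaled CPM plus 0.5 (x axis), for 8 genes in Panc1 and 23 in A549 (rows), with 1 point per library coloured by group. IL11 is highest in the libraries with TGFβ in both lines, while CCL20 and CXCL5 in A549 are lowest in those labelled siKLF10_TGFb.

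NF-κB subunits rose together in A549 with TGFβ, but the other NF-κB genes did not all follow. NFKB1, the p50 precursor, stood at 37.7 and 40.6 CPM in siCont and 91.3 and 88.9 in TGFb (1.20 ± 0.0919, adjusted p = 3.17e-10). NFKB2, the p52 precursor, stood at 65.1 and 62 and 159.9 and 175 (1.40 ± 0.0841, adjusted p = 5.51e-12), and RELB, its partner, at 20.9 and 24 and 69.8 and 81.2 (1.75 ± 0.106, adjusted p = 6.38e-12). All 3 subunits were higher in each TGFb library than in either siCont library. TNFAIP3, the deubiquitinase A20 that ends NF-κB signalling, stood at 42.1 and 48.5 CPM and at 123 and 124 with TGFβ (1.45 ± 0.0955, adjusted p = 2.60e-11). NFKBIA, which encodes IκBα, stood at 129.8 and 119 and 136 and 123 (0.06 ± 0.0849, adjusted p = 0.594), so its groups overlapped. BIRC3, the ubiquitin ligase cIAP2, was not called (0.05 ± 0.126, adjusted p = 0.754). TNFAIP2, a TNF-induced gene, stood at 739 and 783 CPM in siCont and 499 and 493 in TGFb and fell (-0.62 ± 0.0831, adjusted p = 2.21e-06).

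Among effectors and receptors in A549, ICAM1, which binds leukocyte integrins, stood at 5.23 and 4.81 CPM in siCont and 26 and 23 in TGFb (2.29 ± 0.166, adjusted p = 1.35e-10). PTGES, the terminal synthase of prostaglandin E2, stood at 21.2 and 21.6 and 86.4 and 86.1 (2.01 ± 0.0964, adjusted p = 1.09e-13). PTGS2, the cyclooxygenase upstream of it, was not called (-0.09 ± 0.0873, adjusted p = 0.447). TNFRSF9, the TNF receptor family member 4-1BB, stood at 2.03 and 2.28 CPM in siCont and 6.84 and 5.05 in TGFb (1.49 ± 0.267, adjusted p = 7.96e-05). The interleukin 1 receptor IL1R1 fell (-0.55 ± 0.0889, adjusted p = 2.23e-05), and so did gp130 itself, IL6ST (-0.51 ± 0.103, adjusted p = 6.42e-04), and LIFR (-0.35 ± 0.14, adjusted p = 0.0418). The call of LIFR was lost in 6 settings, with adjusted p = 0.15 with DESeq2, 0.30 without siCont B, 0.106 without TGFb A, 0.178 without TGFb B, 0.0508 without siKLF10 A and 0.051 without siKLF10 B. OSMR, the oncostatin M receptor, rose by 0.22 ± 0.0803, adjusted p = 0.0308, and its call was lost with adjusted p = 0.0583 without siCont A, 0.211 without siCont B and 0.278 without TGFb A. Of the remaining ligands CSF1, the macrophage growth factor, stood at 92.4 and 99.3 CPM and at 44.1 and 45.9 with TGFβ (-1.09 ± 0.089, adjusted p = 9.37e-10). IL18, an interleukin 1 family cytokine, fell from 81.9 ± 0.836 to 49.5 ± 3.07 CPM (-0.72 ± 0.0889, adjusted p = 6.64e-07), and IL15, a growth factor of lymphocytes, was not called (0.31 ± 0.134, adjusted p = 0.0658).

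In Panc1 with TGFβ more of these genes fell than rose, and IL11 and PTGS2 had the largest rises. Of 25 genes tested, 3 rose, where 14.0% of all genes did, and 14 fell, where 15.1% did. Their median was -0.28 on the log2 scale against -0.00 for all genes. Of the 7 NF-κB genes 5 fell and 0 rose by edgeR or DESeq2, with 1 higher at an unadjusted p under 0.05. Of 6 secreted interleukins and growth factors tested 1 rose and 2 fell. Of 5 chemokines 1 rose and 2 fell by edgeR, and DESeq2 called 3 lower, with IL8 among them. Of 4 receptors 3 fell and 0 rose, by edgeR, by DESeq2 or at an unadjusted p. Without siCont A, the library with the highest KRT5, 3 were higher and 12 lower.

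IL11 stood at 2.87, 4.18 and 3.19 CPM in siCont A to C and at 26.8, 26.6 and 21.2 in TGFb A to C (2.87 ± 0.165, adjusted p = 1.33e-11, 7.29-fold). Its lowest TGFb library lay well above its highest siCont library. PTGS2, the inducible cyclooxygenase, stood at 2.28, 1.65 and 1.2 CPM and at 4.87, 4.08 and 3.4 with TGFβ (1.27 ± 0.245, adjusted p = 3.25e-04), also without overlap. CCL2 rose from 173 ± 7.89 to 199.99 ± 11.3 CPM (0.21 ± 0.0737, adjusted p = 0.0398), a call that was lost with adjusted p = 0.123 without siCont A, 0.118 without siCont B, 0.0794 without TGFb A and 0.172 without TGFb B. CSF1 stood at 45.4, 51.2 and 51.4 CPM in siCont and 12.4, 12.1 and 14.6 in TGFb (-1.92 ± 0.0972, adjusted p = 4.23e-13). CXCL16 stood at 8.4, 7.17 and 7.85 and 3.63, 3.04 and 2.99 (-1.28 ± 0.155, adjusted p = 8.78e-07), and CXCL1 at 11, 9.38 and 10.4 and 4.94, 6.95 and 7.14 (-0.70 ± 0.17, adjusted p = 0.00317). None of these 3 had a TGFb library within the range of siCont. LIF fell by less (-0.22 ± 0.077, adjusted p = 0.0316), with the call lost at adjusted p = 0.105 without siCont B, 0.122 without siCont C, 0.193 without TGFb A and 0.0634 without TGFb C.

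BIRC3, TNFAIP2, ICAM1 and the feedback inhibitors NFKBIA and TNFAIP3 were lower in Panc1 with TGFβ. BIRC3 stood at 100.5, 99.2 and 106 CPM in siCont and 47.7, 48.8 and 50.5 in TGFb (-1.06 ± 0.0805, adjusted p = 5.10e-10). TNFAIP2 stood at 101, 111 and 116 and 56.3, 59 and 54 (-0.95 ± 0.0809, adjusted p = 3.05e-09), and ICAM1, the integrin ligand, at 52.2, 48.6 and 45.6 and 24.1, 26.1 and 21.9 (-1.02 ± 0.0849, adjusted p = 2.16e-09). Each was lower in all 3 TGFb libraries than in any siCont library. NFKBIA fell from 51 ± 2.93 to 32.4 ± 1.88 CPM (-0.66 ± 0.0811, adjusted p = 1.12e-06). TNFAIP3 fell by a smaller amount (-0.33 ± 0.103, adjusted p = 0.0175), a call lost at adjusted p = 0.0856 without siCont A and 0.0639 without TGFb B. Of the subunits NFKB2 fell (-0.26 ± 0.0833, adjusted p = 0.0227, lost at adjusted p = 0.13 without siCont B, 0.0537 without TGFb A and 0.108 without TGFb C), while NFKB1 (0.15 ± 0.0688, adjusted p = 0.10) and RELB (0.04 ± 0.135, adjusted p = 0.851) were not called. The receptors OSMR (-0.39 ± 0.0626, adjusted p = 3.74e-05), LIFR (-0.35 ± 0.082, adjusted p = 0.00207) and IL1R1 (-0.28 ± 0.0826, adjusted p = 0.0124) fell as well, the last losing its call without siCont A (adjusted p = 0.0583).

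IL8 and PTGES, like KRT5, were high in Panc1 siCont A. PTGES stood at 3.17, 0.867 and 1.53 CPM in siCont A to C and 0.654, 0.24 and 0.34 in TGFb (-2.14 ± 0.49, adjusted p = 0.00195), and without siCont A the difference was -1.54 (adjusted p = 0.0227). IL8 stood at 7.81, 2.28 and 3.73 CPM in siCont and 3.27, 2.24 and 1.97 in TGFb and was not called by edgeR (-0.89 ± 0.357, adjusted p = 0.0786), while DESeq2 called it lower. For both genes siCont A was the highest of the 12 Panc1 libraries. The 7 basal keratinocyte markers, with KRT1 at 0 and KRT14 and KRT16 under 1 CPM throughout, summed to 26.7 to 72.9 CPM over the Panc1 siCont libraries, 8.16 to 15.2 in TGFb, 8.34 to 8.98 in siKLF10 and 8.37 to 10.2 in siKLF10_TGFb. The 8 leukocyte markers, nearly all of it CD68, a lysosomal protein not confined to macrophages, summed to 264 to 285, 156 to 171, 73.0 to 97.2 and 38.4 to 54.9 CPM. In the same order of groups, the 7 pancreatic ductal and epithelial markers summed to 1084 to 1205, 654 to 677, 1070 to 1139 and 934 to 1057 CPM, and the 5 fibroblast markers to 49.0 to 50.03, 67.5 to 69.1, 38.6 to 45.8 and 48.8 to 60.1. Their part in these results was not tested.

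**Figure D3:**
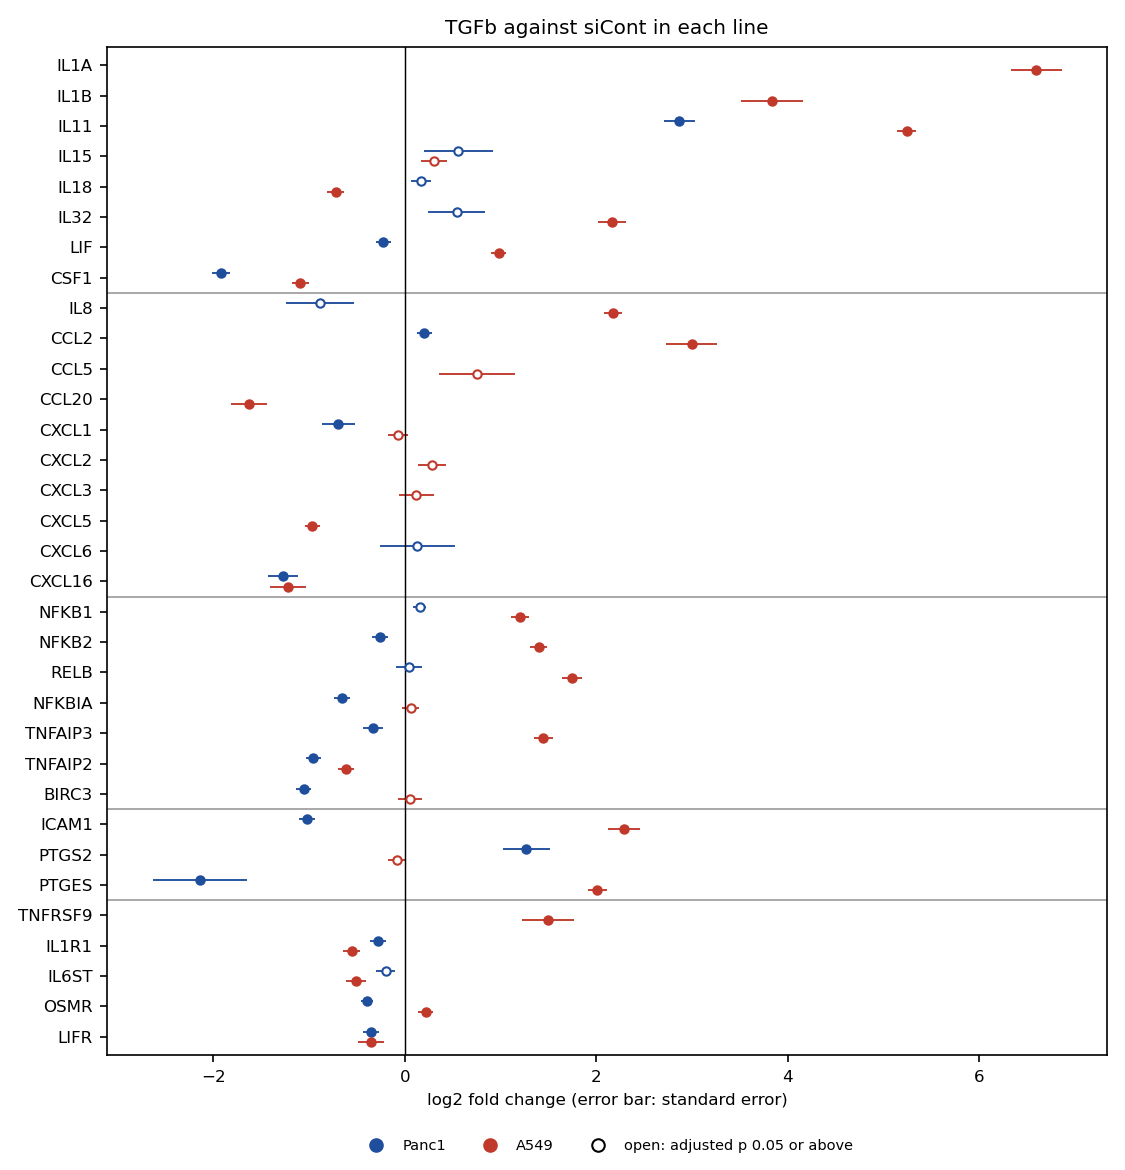
Log2 fold change ± SE of TGFb against siCont for each gene tested in at least 1 line (x axis), with the genes in rows by role and the lines in separate colours. The plot leaves out CSF2, CX3CL1, IL6 and TREM1, for which a group held 3 reads or fewer. IL11 lies right of 0 in both lines, CSF1 and CXCL16 left of 0 in both, and ICAM1, TNFAIP3 and NFKB2 on opposite sides.

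The TGFβ responses of the lines differed for most of these genes, and more often with the Panc1 response below that of A549. The difference, Panc1 minus A549, was called lower for 20 of 38 genes, where 13.8% of all genes were, and higher for 3, where 17.1% were. Of the 20, IL1A, IL1B, CSF2, CXCL2 and TNFRSF9 were under the filter in Panc1 and entered the joint model through A549. Called in both lines were 13 genes: IL11 and CCL2 rose in both, CSF1, CXCL16, TNFAIP2, IL1R1 and LIFR fell in both, and LIF, NFKB2, TNFAIP3, ICAM1, PTGES and OSMR fell in Panc1 and rose in A549. No gene rose in Panc1 and fell in A549. For those 6 with opposite calls the differences were -1.12 (LIF), -1.57 (NFKB2), -1.70 (TNFAIP3), -3.23 (ICAM1), -4.07 (PTGES) and -0.53 (OSMR), all called, with adjusted p = 5.22e-10, 1.21e-12, 9.51e-12, 6.56e-16, 7.13e-08 and 1.79e-04. Without Panc1 siCont A the difference for PTGES was -3.47. IL11, which rose in both, rose less in Panc1 (-2.29 ± 0.226, adjusted p = 8.07e-09). The fall of CXCL16 did not differ between lines beyond its error (0.03 ± 0.266, adjusted p = 0.983), nor did that of TNFAIP2 (-0.26 ± 0.119, adjusted p = 0.103) or LIFR (0.08 ± 0.169, adjusted p = 0.778), while CSF1 fell further in Panc1 (-0.74 ± 0.137, adjusted p = 6.23e-05). The response of PTGS2 was higher in Panc1 (1.44 ± 0.235, adjusted p = 1.06e-05), as was that of IL18 (0.97 ± 0.15, adjusted p = 5.21e-06), whose own change in Panc1 was not called (0.17 ± 0.102, adjusted p = 0.249).

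**Figure D4:**
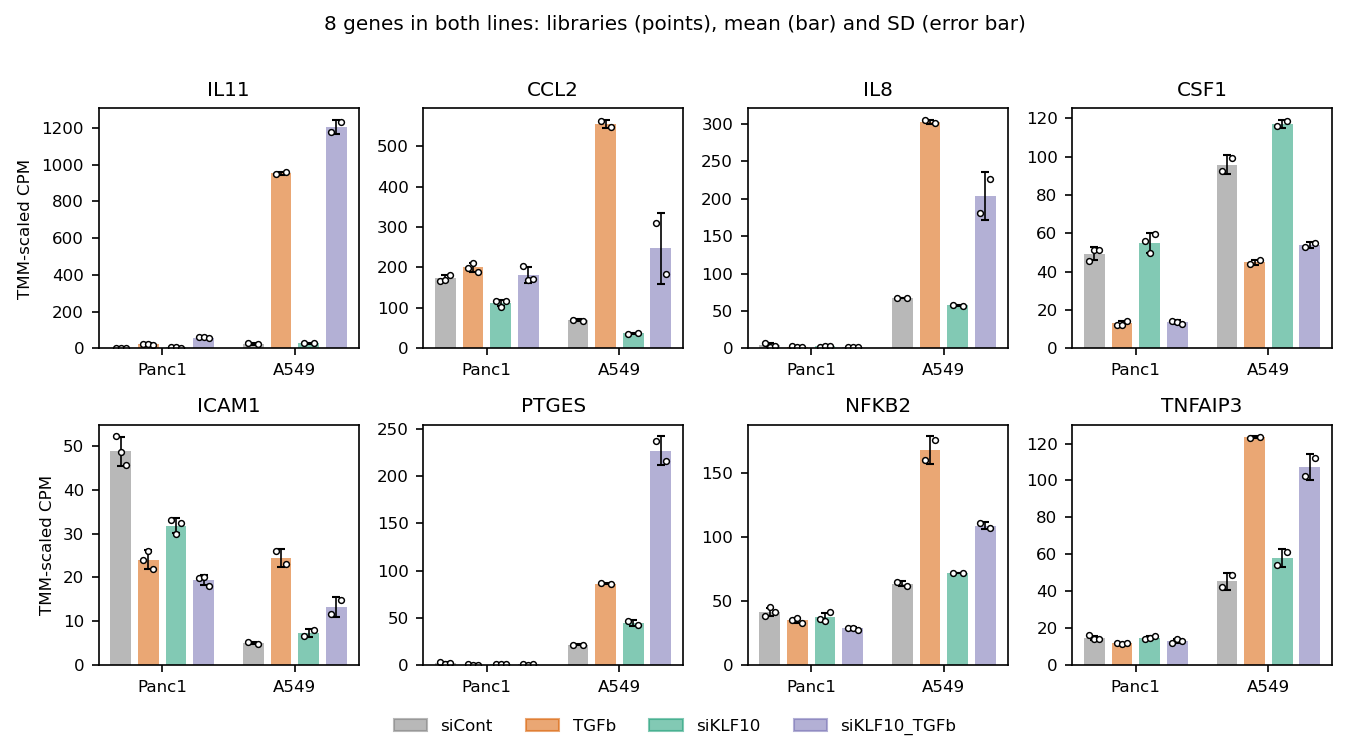
Level (y axis, TMM-scaled CPM) of 8 genes in the 4 groups of each line. Bars are means from 0, error bars are SD and points are libraries (3 per group in Panc1, 2 in A549). ICAM1, NFKB2 and TNFAIP3 are lower with TGFβ in Panc1 and higher with it in A549.

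Without TGFβ, the KLF10 siRNA lowered a small set of ligands and receptors in Panc1. Of 25 genes tested 8 fell, where 18.3% of all genes did, and 2 rose, where 17.3% did. CXCL1 stood at 3.77, 5.51 and 5.84 CPM in siKLF10 A to C against 10.3 ± 0.842 in siCont (-1.02 ± 0.179, adjusted p = 1.26e-04). ICAM1 stood at 33.1, 29.9 and 32.4 against 48.8 ± 3.32 (-0.62 ± 0.0832, adjusted p = 5.25e-06). Both were below every siCont library. IL18 fell from 69 ± 9.68 to 37.2 ± 4.66 CPM (-0.89 ± 0.108, adjusted p = 3.28e-06), CCL2 from 173 ± 7.89 to 113 ± 7.95 (-0.62 ± 0.0752, adjusted p = 1.19e-06), OSMR from 173 ± 7.7 to 106 ± 5.06 (-0.71 ± 0.0633, adjusted p = 1.48e-08) and LIF from 51.3 ± 3.31 to 38.9 ± 2.4 (-0.40 ± 0.0782, adjusted p = 3.83e-04). PTGS2 stood at 0.60, 1.06 and 0.758 CPM (-1.06 ± 0.338, adjusted p = 0.0181), a call lost at adjusted p = 0.111 without siCont A, 0.0649 without siKLF10 A and 0.0619 without siKLF10 C. NFKBIA fell by 0.22 ± 0.0796, adjusted p = 0.0327, lost at adjusted p = 0.145 without siCont B, 0.138 without siKLF10 B and 0.0501 without siKLF10 C.

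IL11 and BIRC3 were the 2 genes called higher in Panc1 siKLF10, and neither call was firm. IL11 stood at 7.62, 5.36 and 4.17 CPM in siKLF10 A to C (0.74 ± 0.207, adjusted p = 0.00853), with siKLF10 C below the highest siCont library, and the call was lost without siKLF10 A (adjusted p = 0.0653). BIRC3 stood at 104, 126 and 122 (0.20 ± 0.0769, adjusted p = 0.0424), with overlapping groups and a call lost at adjusted p = 0.0512 with DESeq2-type size factors, 0.0672 with DESeq2, 0.11 without siCont A, 0.138 without siCont B, 0.0584 without TGFb A, 0.0615 without TGFb B, 0.0541 without TGFb C, 0.187 without siKLF10 B, 0.152 without siKLF10 C and 0.0558 without siKLF10_TGFb B. CSF1 stood at 56.1, 49.6 and 59.6 CPM, CXCL16 at 7.54, 6.49 and 6.52 and TNFAIP2 at 101, 109 and 106, and these were not called (0.16 ± 0.0849, adjusted p = 0.159 for CSF1, -0.19 ± 0.139, adjusted p = 0.299 for CXCL16 and -0.05 ± 0.0783, adjusted p = 0.645 for TNFAIP2).

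In A549, 8 of 36 genes were higher in the libraries labelled siKLF10 than in siCont, where 9.57% of all genes were, and 1, IL1R1 (-0.74 ± 0.0892, adjusted p = 4.20e-06), was lower, where 9.96% were. PTGES stood at 46.4 and 42.6 CPM in siKLF10 A and B against 21.4 ± 0.305 in siCont (1.06 ± 0.10, adjusted p = 1.53e-07). NFKBIA stood at 197 and 183 against 124 ± 7.93 (0.61 ± 0.0835, adjusted p = 2.08e-05), and TNFAIP2 at 1011 and 1192 against 761 ± 31.4 (0.53 ± 0.0823, adjusted p = 8.16e-05). For these 3 both siKLF10 libraries lay above both siCont libraries. PTGS2 was higher too (0.44 ± 0.085, adjusted p = 9.22e-04), as was LIFR (0.58 ± 0.126, adjusted p = 0.00227, adjusted p = 0.0660 without siCont A). TNFAIP3 stood at 54.3 and 61.3 CPM (0.35 ± 0.0989, adjusted p = 0.0159), lost at adjusted p = 0.238 without siCont A and 0.148 without siKLF10 B. CSF1 stood at 116 and 119 (0.29 ± 0.0822, adjusted p = 0.0152), lost at adjusted p = 0.198 without siCont A, 0.0584 without siCont B, 0.0846 without siKLF10 A and 0.0813 without siKLF10 B. LIF was higher by 0.24 ± 0.0773, adjusted p = 0.0332, lost at adjusted p = 0.0645 with DESeq2, 0.0537 with no filter, 0.332 without siCont A, 0.0663 without siCont B, 0.0564 without TGFb A, 0.0561 without TGFb B, 0.137 without siKLF10 A and 0.129 without siKLF10 B. The count of 9 was 5 without siCont A, 17 without siKLF10_TGFb A, 17 without siKLF10_TGFb B and 16 in a fit of the siKLF10 and siCont libraries alone. KLF10 itself did not differ between these groups beyond its error. Leukocyte markers summed to 32.5 to 34.8 CPM in siCont and 18.8 to 19.8 in siKLF10, basal keratinocyte markers to 2.47 to 2.89 and 5.04 to 5.72, and fibroblast markers to 1.23 to 1.31 and 2.34 to 2.79, and their part was not tested.

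In that comparison edgeR called 0 of the 10 chemokines tested, DESeq2 called 1 lower (CCL2), and 4 were lower at an unadjusted p under 0.05. CCL2 stood at 36.5 and 38.5 CPM (-0.90 ± 0.284, adjusted p = 0.101), IL8 at 58.1 and 56.5 (-0.22 ± 0.0995, adjusted p = 0.13), CXCL5 at 438 and 427 (-0.12 ± 0.0724, adjusted p = 0.255) and CCL20 at 17.5 and 19.1 (0.05 ± 0.15, adjusted p = 0.856). The rest of the genes described library by library were not called either. IL11 stood at 27.5 and 26.8 CPM, IL32 at 5.3 and 6.28, CXCL2 at 9.81 and 8.79, CXCL3 at 7.9 and 9.49 and CXCL16 at 11.9 and 11.4. The subunits NFKB1, NFKB2 and RELB stood at 42.5 and 38.9, 71.6 and 72, and 25.3 and 24.8, ICAM1 at 6.69 and 7.96 and TNFRSF9 at 2.17 and 2.93. IL1A and IL1B stood at 0.261 and 0.14 CPM each, on 4 reads apiece, IL6 had no read and TREM1 had 1.

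Between the lines, the difference of siKLF10 from siCont was lower in Panc1 than in A549 for 10 of 38 genes, where 8.65% of all genes were, and higher for 1, IL1R1 (0.57 ± 0.122, adjusted p = 0.0011), where 8.59% were. ICAM1 (-1.11 ± 0.211, adjusted p = 3.12e-04), NFKBIA (-0.81 ± 0.117, adjusted p = 6.78e-06), PTGS2 (-1.46 ± 0.32, adjusted p = 0.00143) and LIF (-0.61 ± 0.111, adjusted p = 1.79e-04) were among the 10. PTGES was too (-1.93 ± 0.391, adjusted p = 0.00111), at -1.33 without Panc1 siCont A (adjusted p = 0.0114), and so was CXCL1 (-0.79 ± 0.22, adjusted p = 0.0132), whose call was lost without A549 siKLF10 A (adjusted p = 0.0848). KLF10 was lower in Panc1 siKLF10 (-0.76 ± 0.0603, adjusted p = 2.58e-09) and not measurably so in the A549 libraries of that label (-0.05 ± 0.0802, adjusted p = 0.743), so these values set a measured knockdown beside one that was not detected.

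Under TGFβ, the A549 libraries labelled siKLF10_TGFb had lower NF-κB genes and chemokines than the TGFb libraries, and higher PTGES, TREM1 and IL11. Of 36 genes tested 21 were lower, where 13.9% of all genes were, and 6 higher, where 14.4% were. The median was -0.51 on the log2 scale for these genes and 0.01 for all genes. The siKLF10_TGFb pair had the highest chi-square per degree of freedom of the A549 pairs, 11.4, where the others had 2.22 to 2.97. Lower were 6 of 7 NF-κB genes, 7 of 10 chemokines, 4 of 10 secreted interleukins and growth factors and 3 of 6 receptors. The 21 and the 4 include CSF2, which passed the filter on low counts only through TGFb, so it had to differ. Keratinocyte markers summed to 14.4 to 15.2 CPM in TGFb and 32.3 to 34.8 in siKLF10_TGFb, leukocyte markers to 53.2 to 56.6 and 35.2 to 35.3, fibroblast markers to 4.83 to 5.35 and 10.5 to 10.6, and pancreatic ductal and epithelial markers to 5895 to 6015 and 4902 to 5503. Their part in the results was not tested.

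Among the chemokines, CXCL2 stood at 5.77 and 6.18 CPM in siKLF10_TGFb A and B against 14.5 ± 1.07 in TGFb (-1.26 ± 0.161, adjusted p = 4.49e-06), and CXCL3 at 3.24 and 4.71 against 9.73 ± 0.747 (-1.24 ± 0.203, adjusted p = 9.26e-05). CCL20 stood at 1.62 and 2.49 against 5.81 ± 1.24 (-1.38 ± 0.255, adjusted p = 3.30e-04). All 3 were below both TGFb libraries. All 3 have the NF-κB consensus within the 250 bases before their start, as do CXCL5 and CXCL1. IL8 had no match to it there, and CCL2 and CXCL16 had no promoter entry. A link between the match and these differences was not tested. CXCL5 stood at 177 and 185 CPM (-0.41 ± 0.0745, adjusted p = 2.62e-04) and IL8 at 181 and 227 (-0.57 ± 0.089, adjusted p = 5.73e-05). CCL2 stood at 309 and 185 against 555 ± 9.99 (-1.17 ± 0.243, adjusted p = 0.0228). Its siKLF10_TGFb libraries differed more from each other than any other A549 pair of this gene, and the call was lost at adjusted p = 0.068 in a fit of those groups alone, 0.0889 without TGFb A and 0.0794 without TGFb B. CXCL16 stood at 4.86 and 4.06 (-0.62 ± 0.221, adjusted p = 0.041), lost at adjusted p = 0.151 with DESeq2, 0.0769 in a fit of those groups alone, 0.687 without TGFb A, 0.0525 without siKLF10 A, 0.0515 without siKLF10 B and 0.20 without siKLF10_TGFb B. CXCL1, whose promoter shares the consensus match, went the other way (0.36 ± 0.103, adjusted p = 0.0119), a call lost at adjusted p = 0.080 without TGFb A, 0.097 without TGFb B and 0.194 without siKLF10_TGFb B.

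The NF-κB genes moved together here. NFKB1 stood at 64.2 and 68.3 CPM in siKLF10_TGFb against 90.1 ± 1.63 in TGFb (-0.44 ± 0.0881, adjusted p = 6.88e-04), NFKB2 at 111 and 107 against 168 ± 10.9 (-0.62 ± 0.0814, adjusted p = 6.36e-06) and RELB at 52.7 and 52.4 against 75.5 ± 8.06 (-0.52 ± 0.098, adjusted p = 4.17e-04). The 3 subunits stayed above their siCont levels of 39.2 ± 2.04, 63.5 ± 2.21 and 22.4 ± 2.18. NFKBIA stood at 94.3 and 89.2 (-0.50 ± 0.0858, adjusted p = 1.51e-04) and TNFAIP2 at 355 and 325 (-0.55 ± 0.0836, adjusted p = 4.39e-05), both below all 6 other A549 libraries. BIRC3 fell from 134 ± 4.78 to 84.5 ± 15.9 CPM (-0.65 ± 0.128, adjusted p = 0.00222). TNFAIP3 stood at 102 and 112 and was not called (-0.20 ± 0.0902, adjusted p = 0.111).

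Of the ligands, IL32 stood at 16.4 and 19.5 CPM in siKLF10_TGFb against 37.3 ± 4.97 in TGFb (-1.03 ± 0.13, adjusted p = 4.11e-06). CSF2 had 7 and 4 reads in siKLF10_TGFb A and B against 30 and 27 in TGFb, the group through which it passed the filter. IL1A stood at 18.5 and 17 (-0.44 ± 0.128, adjusted p = 0.0126, lost at adjusted p = 0.155 with DESeq2, 0.0692 without TGFb A, 0.093 without TGFb B and 0.0812 without siKLF10_TGFb B). IL1B stood at 4.25 and 4.55 (-0.64 ± 0.213, adjusted p = 0.0271, lost at adjusted p = 0.27 with DESeq2, 0.228 without TGFb A, 0.0784 without TGFb B and 0.0694 without siKLF10_TGFb B). For IL32 the groups were apart. CSF2 passed the filter only through TGFb, where it was high, so it had to differ and its call supports nothing further. IL11 went up further, to 1178 and 1233 CPM (0.34 ± 0.0801, adjusted p = 0.00301), above both TGFb libraries. IL6 had 21 and 49 reads and was not called (0.35 ± 0.338, adjusted p = 0.471). CSF1 stood at 52.9 and 54.9 (0.26 ± 0.0911, adjusted p = 0.0338), a call lost at adjusted p = 0.0969 with DESeq2, 0.104 in a fit of those groups alone, 0.0623 without siCont A, 0.0625 without siCont B, 0.21 without TGFb A, 0.0961 without TGFb B, 0.0509 without siKLF10 A, 0.051 without siKLF10 B and 0.0983 without siKLF10_TGFb B.

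Of the remaining effectors PTGES and PTGS2 were higher and ICAM1 was lower. PTGES stood at 238 and 217 CPM in siKLF10_TGFb A and B against 86.3 ± 0.213 in TGFb (1.40 ± 0.0843, adjusted p = 1.51e-10), the highest of its 4 groups, and PTGS2 differed by less (0.47 ± 0.0862, adjusted p = 2.89e-04). ICAM1 stood at 11.6 and 14.8 against 24.5 ± 2.08 (-0.87 ± 0.142, adjusted p = 9.26e-05). TREM1 stood at 33.3 and 38 against 15.5 ± 2.5 (1.23 ± 0.138, adjusted p = 8.85e-07), and TNFRSF9 at 2.13 and 2.76 against 5.95 ± 1.27 (-1.26 ± 0.254, adjusted p = 7.49e-04). The TNFRSF9 call was lost without TGFb A (adjusted p = 0.0618). In each of these comparisons the groups did not overlap. IL1R1 (-0.79 ± 0.0937, adjusted p = 1.79e-06) and OSMR (-0.39 ± 0.0805, adjusted p = 9.31e-04) were lower, and IL6ST (-0.10 ± 0.104, adjusted p = 0.526) and LIFR (0.23 ± 0.14, adjusted p = 0.238) were not called.

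**Figure D5:**
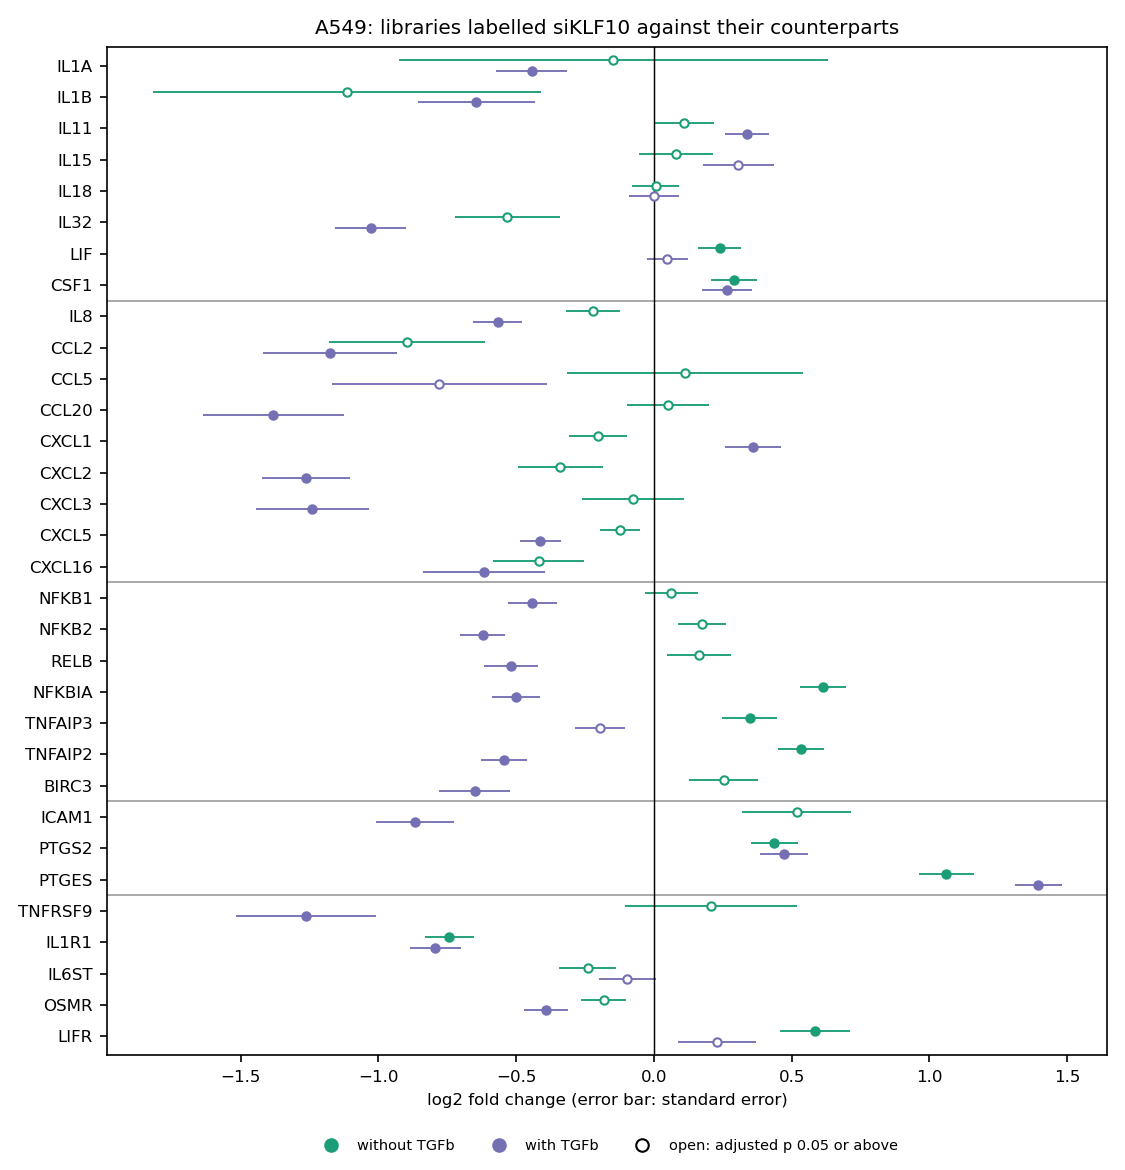
Log2 fold change ± SE between A549 libraries labelled siKLF10 and their controls, without TGFβ (siKLF10 against siCont) and with it (siKLF10_TGFb against TGFb), for 32 genes in rows by role. CSF2, CX3CL1, IL6 and TREM1 are left out because a group held 3 reads or fewer. All 7 NF-κB genes lie further left with TGFβ than without it.

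In Panc1 under TGFβ, IL11 and BIRC3 were higher with the KLF10 siRNA, and RELB, NFKB2, NFKBIA, TNFAIP2, ICAM1, IL18, LIF and OSMR were lower. Of 25 genes 2 rose, where 21.1% of all genes did, and 8 fell, where 20.6% did. IL11 stood at 62.1, 60.3 and 55.8 CPM in siKLF10_TGFb A to C against 24.9 ± 3.15 in TGFb (1.26 ± 0.117, adjusted p = 4.08e-08), above every other Panc1 library. BIRC3 stood at 61, 63.4 and 74.2 against 49 ± 1.44 (0.43 ± 0.0821, adjusted p = 2.30e-04), without overlap. RELB fell from 8.3 ± 0.854 to 5.02 ± 0.986 CPM (-0.71 ± 0.147, adjusted p = 5.43e-04), NFKB2 by a smaller amount (-0.29 ± 0.0863, adjusted p = 0.00973), and TNFAIP2, at 49.8, 39.4 and 39 CPM, fell too (-0.39 ± 0.0851, adjusted p = 7.93e-04). NFKBIA (-0.23 ± 0.0854, adjusted p = 0.0348) lost its call at adjusted p = 0.11 without TGFb A, 0.0944 without TGFb B, 0.151 without siKLF10_TGFb B and 0.0826 without siKLF10_TGFb C. ICAM1 stood at 20, 20 and 18 (-0.31 ± 0.0923, adjusted p = 0.00993), lost without TGFb B (adjusted p = 0.0595). IL18 (-0.71 ± 0.105, adjusted p = 2.47e-05), LIF (-0.50 ± 0.0804, adjusted p = 3.39e-05) and OSMR (-0.68 ± 0.0645, adjusted p = 2.81e-08) fell as they had without TGFβ. CSF1 at 14.4, 13.9 and 12.6 CPM, CXCL1 at 4.48, 6.93 and 6.77, CXCL16 at 2.24, 2.94 and 2.26 and PTGS2 at 2.24, 3.43 and 2.86 were not called. The sum of leukocyte markers, mainly CD68, was also lower with the siRNA (38.4 to 54.9 CPM against 156 to 171), as was that of fibroblast markers (48.8 to 60.1 against 67.5 to 69.1), and that of pancreatic ductal and epithelial markers was higher (934 to 1057 against 654 to 677). Their part was not tested.

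The difference of siKLF10_TGFb from TGFb was higher in Panc1 than in A549 for 7 of 38 genes, where 7.52% of all genes were, and lower for 4, where 12.3% were. IL11 rose more in Panc1 (0.88 ± 0.153, adjusted p = 1.54e-04). BIRC3 (1.04 ± 0.154, adjusted p = 1.63e-05), CCL2 (1.01 ± 0.193, adjusted p = 0.00126) and NFKB1 (0.51 ± 0.113, adjusted p = 0.00114) were also higher in Panc1. TNFRSF9, another of the 7, was under the filter in Panc1, with 6 reads in TGFb and 14 in siKLF10_TGFb. Of the 4 that were lower there, IL18 (-0.75 ± 0.153, adjusted p = 5.90e-04), LIF (-0.59 ± 0.111, adjusted p = 2.09e-04) and PTGS2 (-1.06 ± 0.217, adjusted p = 5.53e-04) kept their call in every alternative run, and OSMR (-0.33 ± 0.106, adjusted p = 0.0262) did not, as the closing section lists.

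Set against the siRNA alone, TGFβ called 17 of 25 genes in Panc1, 5 higher (where 22.6% of all genes were) and 12 lower (22.3%). In A549 it called 32 of 36, 18 higher (26.5%) and 14 lower (26.8%). The A549 counts again include IL1A, IL1B, IL6, CSF2, TREM1 and CX3CL1, which passed the filter only through groups in which they were high. IL11 rose by 3.39 ± 0.144 in Panc1 and 5.47 ± 0.103 in A549, PTGS2 by 1.78 ± 0.311 in Panc1 and PTGES by 2.35 ± 0.0891 in A549 (adjusted p = 6.03e-14, 1.83e-20, 6.62e-05 and 1.74e-15). CCL2, whose rise from siCont to TGFb was small in Panc1, rose there by 0.69 ± 0.0753, adjusted p = 1.05e-07. NFKBIA and BIRC3, not called in A549 TGFb against siCont, were lower in siKLF10_TGFb than in siKLF10 (-1.05 ± 0.0847, adjusted p = 6.48e-10 for NFKBIA and -0.85 ± 0.127, adjusted p = 9.21e-05 for BIRC3). CXCL3 fell too (-1.05 ± 0.205, adjusted p = 1.90e-04). IL6 had 0 reads in A549 siKLF10 and 70 in siKLF10_TGFb, at least 14.5-fold higher, CSF2 had 0 and 11, at least 2.28-fold higher, and TREM1 had 1 and 1031, a ratio of 642 (115 to 25369). CX3CL1 had 13 and 2 reads, 10.4 times the depth-scaled level of siKLF10_TGFb in siKLF10 (2.36 to 95.3).

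Whether the difference with TGFβ itself changed with the KLF10 siRNA was tested as an interaction: the log2 difference of siKLF10_TGFb from siKLF10, less that of TGFb from siCont. If the TGFb groups held no control siRNA, which the labels do not say, this term also holds any effect of transfection, and the groups cannot tell them apart. In A549 it was lower for 12 of 36 genes, where 3.23% of all genes were, and higher for 1, where 3.26% were. All 7 NF-κB genes were among the 12. The siKLF10_TGFb pair, which had the highest chi-square of the A549 pairs, enters this term. NFKBIA (-1.11 ± 0.12, adjusted p = 5.37e-06), TNFAIP2 (-1.08 ± 0.117, adjusted p = 5.92e-06) and NFKB2 (-0.80 ± 0.119, adjusted p = 2.59e-04) kept the call in every alternative run, and so did ICAM1 (-1.38 ± 0.245, adjusted p = 0.00134). BIRC3 (-0.90 ± 0.179, adjusted p = 0.010) lost it at adjusted p = 0.0638 without TGFb B, RELB (-0.68 ± 0.152, adjusted p = 0.00841) at 0.085 without siCont A, 0.0765 without TGFb B and 0.0659 without siKLF10 A, TNFAIP3 (-0.54 ± 0.134, adjusted p = 0.0163) at 0.142 without siCont A, 0.085 without TGFb A, 0.0829 without TGFb B and 0.0853 without siKLF10 B, and NFKB1 (-0.50 ± 0.131, adjusted p = 0.0222) at 0.0631 with DESeq2, 0.148 without siCont A, 0.0662 without siCont B, 0.117 without TGFb A, 0.0811 without TGFb B and 0.169 without siKLF10 A. The count of 13 was 8 with DESeq2, 7 without siCont A, 8 without TGFb A and 6 without TGFb B.

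The other 4 genes with a lower interaction in A549 were ligands and a receptor. CCL20 (-1.43 ± 0.296, adjusted p = 0.0045) lost its call without TGFb B (adjusted p = 0.0620). CXCL3 (-1.16 ± 0.275, adjusted p = 0.0125) lost it at adjusted p = 0.0534 with DESeq2, 0.0673 without siCont A, 0.109 without TGFb A and 0.0578 without siKLF10 B, and CXCL2 (-0.92 ± 0.225, adjusted p = 0.015) at 0.0864 with DESeq2, 0.0783 without siCont B, 0.0832 without TGFb B and 0.131 without siKLF10 A. TNFRSF9 (-1.47 ± 0.406, adjusted p = 0.0321) lost it at 0.118 without siCont A, 0.0748 without siCont B, 0.211 without TGFb A, 0.0667 without siKLF10 A and 0.134 without siKLF10 B. CXCL1 was the 1 gene with a higher interaction (0.56 ± 0.147, adjusted p = 0.0227), lost at 0.0547 with DESeq2, 0.114 without siCont A, 0.0954 without siCont B, 0.105 without TGFb A, 0.117 without TGFb B, 0.133 without siKLF10 B and 0.0504 without siKLF10_TGFb B. Of the 10 secreted interleukins and growth factors tested, 0 were called by edgeR or DESeq2 and 1 was lower at an unadjusted p under 0.05. IL11 was not called (0.23 ± 0.134, adjusted p = 0.371), although 7 of them rose from siCont to TGFb.

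In Panc1 the interaction was higher for 2 of 25 genes, where 2.56% of all genes were, and lower for 0, where 1.86% were. CCL2 (0.49 ± 0.105, adjusted p = 0.00851) kept its call in every alternative run. CXCL1 (0.93 ± 0.259, adjusted p = 0.0408) lost it without any 1 of 9 libraries, at adjusted p = 0.0965 without siCont A, 0.0534 without siCont B, 0.0679 without siCont C, 0.116 without TGFb A, 0.0624 without TGFb B, 0.102 without siKLF10 A, 0.0507 without siKLF10 C, 0.135 without siKLF10_TGFb B and 0.108 without siKLF10_TGFb C, and the count was then 1. DESeq2 also called 0 lower, and 1 gene was lower at an unadjusted p under 0.05. IL11 was not called (0.52 ± 0.241, adjusted p = 0.244). Of the 7 NF-κB genes 0 were called by either tool, and 1 was lower at an unadjusted p under 0.05.

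Genes of the same pathways outside the 40 were read from fixed lists, and the shares in brackets are those of all genes tested. Of 26 other NF-κB pathway genes, 18 rose (24.2%) and 0 fell (23.5%) in A549 with TGFβ, with a median of 0.46 on the log2 scale, and 5 rose (14.0%) and 2 fell (15.1%) in Panc1. The kinase IRAK2 of the interleukin 1 receptor pathway (2.41 ± 0.0943, adjusted p = 3.54e-15), the adaptor TRAF1 (1.88 ± 0.176, adjusted p = 8.44e-09) and the IκB family member NFKBIZ (1.62 ± 0.118, adjusted p = 3.76e-10) were among those that rose in A549. In the A549 libraries labelled siKLF10_TGFb, 5 of the 26 were lower (13.9%) and 2 higher (14.4%) than in TGFb, TRAF1 among the lower (-0.82 ± 0.155, adjusted p = 3.97e-04). The same list showed 9 lower (20.6%) and 4 higher (21.1%) in Panc1, IRAK2 among the lower (-1.27 ± 0.0742, adjusted p = 2.01e-11).

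Of 18 other gp130, JAK and STAT genes, 6 of 17 tested rose and 5 fell in A549 with TGFβ, and 3 of 16 rose and 3 fell in Panc1, against 24.2% and 23.5% of all genes in A549 and 14.0% and 15.1% in Panc1, so these counts are not far from the background. The interleukin 6 receptor IL6R fell in both lines (-2.07 ± 0.134, adjusted p = 1.94e-11 and -1.42 ± 0.122, adjusted p = 3.44e-09). STAT3, which carries the gp130 signal to the nucleus, fell in Panc1 with TGFβ (-0.67 ± 0.0603, adjusted p = 7.40e-09) and with the siRNA (-0.96 ± 0.0609, adjusted p = 6.20e-11). Of 19 tested among 30 further interleukin 1, TNF and chemokine family genes, 11 rose and 5 fell in A549, with the interleukin 1 family cytokine IL33 going from a mean of 0.16 to 6.0 CPM. IL33, at 0.11 CPM in siKLF10, passed the filter only through the groups with TGFβ. It had to differ, so its call supports nothing further. In Panc1 5 of 16 rose and 5 fell, the apoptosis ligand TNFSF10 among the latter (-1.82 ± 0.341, adjusted p = 2.35e-04).

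In all, 25 of the 40 genes passed the filter on low counts in Panc1 and 36 in A549, 24 of them in both lines and 3 (CSF3, TNF and TSLP) in neither. Genes that pass only through the group where they are high had to differ, so these counts describe the genes that passed. In Panc1, 20 of the 25 were called by edgeR in at least 1 of the 5 comparisons, where 70.6% of all genes tested were, and 5 in none: IL15, IL32, IL8, CXCL6 and IL6ST. DESeq2 did call IL8 lower in TGFb than in siCont. In A549 35 of 36 were called in at least 1, where 70.2% of all genes were, all but CCL5. CSF3, the granulocyte growth factor G-CSF, had 2 reads in A549 siCont, 2 in TGFb, 8 in siKLF10 and 13 in siKLF10_TGFb. In Panc1, CX3CL1 had 17 reads in siCont and 0 in TGFb, at least 5.73-fold lower with TGFβ. IL1A, at 0.46 CPM in Panc1 siCont, and IL1B, at 0.238, stayed under the filter there.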

How the data were processed

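The 40 genes were read from 1 deposited count table per library, holding whole-number counts of reads for 23368 genes and 5 summary lines, which were left out. Per the labels' protocols, poly(A) RNA from TRIzol extracts was made into directional libraries. Per the submitters' processing notes, TopHat, Bowtie2, HTSeq 0.6.0, DESeq2 and hg19 were used. Whether counting used strand is not given in the sources cited, so overlapping and antisense genes are uncertain. The authors' own comparison tables were not used here. No column of another series was present (0).

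The tests used edgeR 4.0.16 (R 4.3.3): filterByExpr (minimum count 10, minimum total 15), TMM scaling and robust quasi-likelihood fits, with all 4 groups of a line sharing 1 estimate of the spread (8 residual degrees of freedom in Panc1, 4 in A549). Line differences came from 1 model of all 20 libraries (12 residual degrees of freedom). Tests covered 13218, 14124 and 15058 genes, and a gene was called at an adjusted p under 0.05. DESeq2 1.42.0 was an alternative, beside other size factors, no filter, a fit of the contrast's groups alone, a replicate block and leaving out each library. Simulated data for TGFb against siCont gave back 89% of genes changed 2-fold and 82% of those changed 1.5-fold in Panc1, and 86% and 59% in A549. The simulation gave every gene in every group the same spread beyond counting error, a coefficient of variation of 0.067. Spread in the real data differed between pairs of libraries, so these shares need not hold there. A floor of 3 counts was 0.193 to 0.269 CPM in Panc1 and 0.157 to 0.438 in A549, and intervals and floors cover counting error only. No pair of libraries looked like 1 library deposited more than once (chi-square per degree of freedom 2.06 to 12.5 in Panc1 and 2.22 to 11.4 in A549, for genes averaging 20 counts or more). In Panc1, siKLF10_TGFb A gave 9.11 with B and 12.5 with C, while B and C gave 2.06 with each other. The highest value in A549 was that of the siKLF10_TGFb pair.

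The genes described, the related lists and the markers were chosen with earlier results of these data known. Genes called in at least 1 comparison within a line with an absolute log2 fold change of at least 1 and a mean of at least 1 CPM over that line are given library by library, and from each related list up to 4 called genes with the largest changes were eligible per comparison. A few marker and related genes are not reported here.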

Additional observations from a re-analysis of the deposited data

Results flagged for a closer look

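Each value given here is a difference of log2 fold changes, tested as an interaction term or as a term for the difference between lines, with edgeR's quasi-likelihood test and an adjusted p under 0.05. In A549 the difference of siKLF10_TGFb from siKLF10 was below that of TGFb from siCont for NFKBIA (-1.11), TNFAIP2 (-1.08), BIRC3 (-0.90), NFKB2 (-0.80), RELB (-0.68), TNFAIP3 (-0.54) and NFKB1 (-0.50) among the NF-κB genes, and for TNFRSF9 (-1.47), CCL20 (-1.43), ICAM1 (-1.38), CXCL3 (-1.16) and CXCL2 (-0.92), and above it for CXCL1 (0.56). In Panc1 it was above for CXCL1 (0.93) and CCL2 (0.49). CXCL1 thus had a higher term in each line, and in each the call was lost in several settings.

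The difference of TGFb from siCont was lower in Panc1 than in A549 for the ligands IL1A (-6.37), IL1B (-3.38), IL11 (-2.29), IL32 (-1.55), LIF (-1.12), CSF1 (-0.74), IL8 (-2.99), CCL2 (-2.71) and CXCL2 (-1.57). The same held for the NF-κB genes TNFAIP3 (-1.70), RELB (-1.62), NFKB2 (-1.57), BIRC3 (-1.03), NFKB1 (-0.97) and NFKBIA (-0.63) and for PTGES (-4.07), ICAM1 (-3.23), TNFRSF9 (-2.66) and OSMR (-0.53). It was higher in Panc1 for PTGS2 (1.44), IL18 (0.97) and IL1R1 (0.35). For CSF2 (-10.15) the value rests on a group with 0 reads and is no bound. IL1A, IL1B, CXCL2, TNFRSF9 and CSF2 were under the filter on low counts in Panc1, with at most 24 reads per group there (CXCL2 in siCont), so their line differences rest on a Panc1 arm near 0. Without Panc1 siCont B the value for CSF2 was -8.38 with an adjusted p = 1.00, and without A549 siCont A the adjusted p was 0.0530. Without Panc1 siCont A the values were -5.72 for IL1A, -2.39 for IL8 and -3.47 for PTGES, and without Panc1 TGFb C that of CXCL2 was -2.46. CXCL2 lost its call at adjusted p = 0.0821 without Panc1 siCont C, 0.0892 without Panc1 TGFb A, 0.106 without Panc1 TGFb B, 0.0522 without A549 siCont B and 0.0516 without A549 TGFb B, and IL1R1 at 0.0631 with DESeq2-type size factors, 0.082 with DESeq2, 0.209 with no filter, 0.0579 without Panc1 siCont B, 0.0544 without Panc1 TGFb A, 0.102 without A549 siCont B, 0.0749 without A549 TGFb A and 0.0689 without A549 TGFb B.

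The difference of siKLF10 from siCont was lower in Panc1 than in A549 for PTGES (-1.93), PTGS2 (-1.46), ICAM1 (-1.11), IL18 (-0.87), NFKBIA (-0.81), CXCL1 (-0.79), LIFR (-0.65), LIF (-0.61), TNFAIP2 (-0.56) and OSMR (-0.50), and higher for IL1R1 (0.57). The difference of siKLF10_TGFb from TGFb was higher in Panc1 for TNFRSF9 (2.46), BIRC3 (1.04), CCL2 (1.01), IL11 (0.88), IL1R1 (0.61), ICAM1 (0.52) and NFKB1 (0.51) and lower for PTGS2 (-1.06), IL18 (-0.75), LIF (-0.59) and OSMR (-0.33). ICAM1 lost the latter call at adjusted p = 0.0624 without Panc1 TGFb C, 0.0522 without Panc1 siKLF10_TGFb B, 0.193 without A549 TGFb A and 0.139 without A549 siKLF10_TGFb A, OSMR at 0.0546 with no filter, 0.0502 without Panc1 TGFb B, 0.063 without Panc1 siKLF10_TGFb A, 0.157 without A549 TGFb B and 0.11 without A549 siKLF10_TGFb A and TNFRSF9 at 0.0636 without Panc1 siKLF10_TGFb B and 0.0532 without A549 TGFb A. For TNFRSF9 the Panc1 arm rests on 6 reads in TGFb and 14 in siKLF10_TGFb. KLF10 itself was not measurably lower in A549 siKLF10 than in siCont (-0.05 ± 0.0802, adjusted p = 0.743), and under TGFβ it was lower by less than in Panc1 (-0.29 ± 0.0779, adjusted p = 0.00775 against -0.94 ± 0.0593, adjusted p = 4.96e-11), so the first of these line differences set a measured knockdown beside none that was detected. Groups of 2 or 3 libraries are too small for a check of single outlying libraries.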

How the results depend on the processing

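Of 243 called gene results, run under the alternatives for 4143 values in all, 3945 kept direction and call, 198 kept direction and lost the call, and 0 reversed. The losses were 172 of 3102 when each library was left out, 13 of 242 with DESeq2, 5 of 243 with no filter, 5 of 148 in a fit of the contrast's groups alone, 2 of 243 with other size factors and 1 of 165 with a replicate block. For counts of these genes called, DESeq2 gave 8 for the A549 interaction (13 with edgeR), and the fit of siKLF10 and siCont alone gave 16 for that A549 comparison (9). Leaving out 1 library gave 6 to 15 for the A549 interaction, 5 to 17 for A549 siKLF10 against siCont and 1 to 3 for the Panc1 interaction (2). In A549 this leaves 1 library in a group, assumed to vary like the other groups. Over all genes, DESeq2 called 1719 instead of 2758 in A549 siKLF10 against siCont and 560 instead of 916 in the A549 interaction. Leaving out 1 library gave 379 (without siCont B) to 2685 (without siKLF10_TGFb A) for the A549 interaction, 1326 (without siCont B) to 4040 (without siKLF10_TGFb A) for A549 siKLF10 against siCont (2758), 2237 (without TGFb A) to 5409 (without siKLF10_TGFb A) for A549 siKLF10_TGFb against TGFb (3996) and 349 (without siKLF10_TGFb B) to 1035 (without siKLF10_TGFb A) for the Panc1 interaction (584). For the line differences it gave 1570 (without A549 siKLF10 A) to 2840 (without Panc1 siKLF10_TGFb A) without TGFβ (2597) and 1895 (without A549 TGFb A) to 3321 (without Panc1 siKLF10_TGFb A) under it (2979). The shares of all genes given beside these comparisons move with them. Plain CPM moved 38 of 275 group means by over 1 SD.

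Letters showed little pairing of libraries. In Panc1, same-letter deviations correlated over 0.1 in 2 of 18 pairs and different-letter ones in 6 of 36, and 3 of 12 libraries correlated best with their own letter. The highest value there was that of a same-letter pair, siKLF10 A with siKLF10_TGFb A (0.312). In A549, with 2 libraries per group, the A pair and the B pair of any 2 groups must give the same value. The 2 of 12 same-letter pairs over 0.1 there are thus 1 value (0.116, siCont with siKLF10). With the replicate block the counts were 18 for Panc1 TGFb against siCont (17 without the block) and 12 for A549 siKLF10 against siCont (9). The block gave the same count as the fit without it in the other comparisons within a line except Panc1 siKLF10_TGFb against siKLF10, at 16 (17), where RELB lost its call (adjusted p = 0.0603). Depth limits the genes near 0: a fitted fold for CSF2, IL6, TREM1 or CX3CL1 moves with the prior count, so reads and counting intervals were given for them.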
